A study of Mus musculus with 12 samples.

Results

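The genes described here are the matrix metalloproteinases (MMPs), the disintegrin metalloproteinases (ADAMs), their secreted relatives with thrombospondin repeats (ADAMTSs) and the tissue inhibitors of metalloproteinases (TIMPs). They were taken by gene symbol, as every row of the deposited table whose symbol starts with Mmp, Timp, Adam or Adamts followed by a digit. This gave 79 of 30743 rows, made up of 23 MMPs, 4 TIMPs, 33 ADAMs and 19 ADAMTSs. The rule uses the symbol alone.

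RNA was sequenced from whole livers of male C57BL/6J mouse fetuses at 15 ± 0.5 dpc, with 6 livers in each group. The dams of the control group ate a diet with 13.5 kcal% fat, and those of the HFD group a diet with 60 kcal% fat, for 12 to 14 weeks. The labels name no transgene or deletion for either group, and the sources used here do not say which fetuses shared a dam. The values used are the authors' average log2 CPM (reads of a gene scaled to a fixed library size) of each gene over all 12 livers, so every level below is 1 pooled number for both diets together. No value for a single liver was used, no spread between livers can be given, and no comparison between the diets was made.

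MMPs, ADAMs and ADAMTSs are zinc-dependent proteases. MMPs cut collagens and other proteins of the extracellular matrix, ADAMs mostly release the outer parts of membrane proteins such as Notch receptors and growth factor precursors, and many ADAMTSs cut proteoglycans or process procollagen. TIMPs bind the active sites of MMPs and, in the case of TIMP3, of several ADAMs and ADAMTSs. The fetal liver is a blood-forming organ in which hepatocytes lie beside erythroid, myeloid, endothelial and mesenchymal cells, and MMP8 and MMP9 are best known as proteases that maturing neutrophils store in granules.

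The proteases share a short zinc-binding site, in which 3 histidines hold the metal. The coding stretch of this site is given for the members on which the results below turn most, namely Mmp8, Mmp9, the other gelatinase Mmp2, the highest members of the MMPs, ADAMs and ADAMTSs, and Adamts5 as a second proteoglycan-cutting enzyme with a different site. Each stretch has 33 bases, is read in frame 5′ to 3′ from the GENCODE M21 transcript, and has the codons of the 3 histidines in capitals.
Mmp8: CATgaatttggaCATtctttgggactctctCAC
Mmp9: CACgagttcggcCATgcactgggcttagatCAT
Mmp2: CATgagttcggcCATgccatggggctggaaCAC
Mmp14: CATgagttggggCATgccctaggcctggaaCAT
Adam10: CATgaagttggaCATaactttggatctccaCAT
Adamts1: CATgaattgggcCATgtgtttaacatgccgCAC
Adamts5: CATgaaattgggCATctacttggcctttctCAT

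On GRCm38, the build called mm10 by the authors, the Mmp8 stretch lies at chr9:7563086-7563118 on the plus strand in exon 5 of 10. The Mmp9 stretch lies at chr2:164951133-164951165 and that of Mmp2 at chr8:92839279-92839311, both on the plus strand and both in exon 8 of 13. The Mmp14 stretch is in exon 5 of 10 at chr14:54437627-54437659 on the plus strand. In Adam10 the site is split between exons 9 and 10 of 16 (chr9:70754296-70761585, plus strand, with the intron in between). In Adamts1 it is split between exons 3 and 4 of 9 (chr16:85799191-85799545, minus strand), and in Adamts5 between exons 2 and 3 of 8 (chr16:85878015-85887826, minus strand).

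Read totals were read back from the averages. Rows without reads share a lowest value, the floor, of 0.152 CPM, which comes from the small count that edgeR adds to every library. Levels below are CPM over this floor. Levels of different genes are compared after division by the length of the longest protein-coding transcript (CPM per kb), while counts of genes above 1 CPM, read totals and levels named as undivided are not divided by length. Read totals averaged 13.1 M per liver (157.6 M in all), so that 1 CPM stands for 157.6 reads over the 12 livers. Intervals are exact Poisson intervals of 95% for the reads and cover counting error only.

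The table does not hold a fair level for every gene. Genes chosen after their values were seen show this. Ppia and Tbp, which nearly every cell uses, had 2 and 77 reads over the 12 livers, while Actb had 406702, and Hnf4a, a defining regulator of hepatocytes, was listed at 0. Of 73 ribosomal protein genes, 4 were listed at 0. A member at 0 below is therefore only listed at 0, and is not shown to be silent. High levels moved with the number of transcripts that RefSeq annotates for a gene. The upper quartile of the read total was 4095 over the 11195 coding genes with 1 curated transcript, 719 over the 3597 with 2, 463 over the 1622 with 3 and 373 over the 1840 with 4 or more. By this count zeros did not follow this order. Of the coding genes with 1 curated transcript 24.3% had no reads, against 18.5% of those with 2 or more. Ppia and Tbp have 1 each. Counted by the transcripts that GENCODE M21 marks as basic, zeros went the other way, at 17.9% with 1 transcript and 25.8% with 2 or more. How zeros depend on transcript number thus rests on the annotation used. Above 1 CPM lay 47.6% of all coding genes with 1 curated transcript and 38.7% of those with 2 or more. Of the 49 members with 1 curated transcript 18 lay above 1 CPM, against 3 of the 30 with more, and 13 of the 15 highest members per kb had 1. The part of this in the members' order was not tested.

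**Figure D1:**
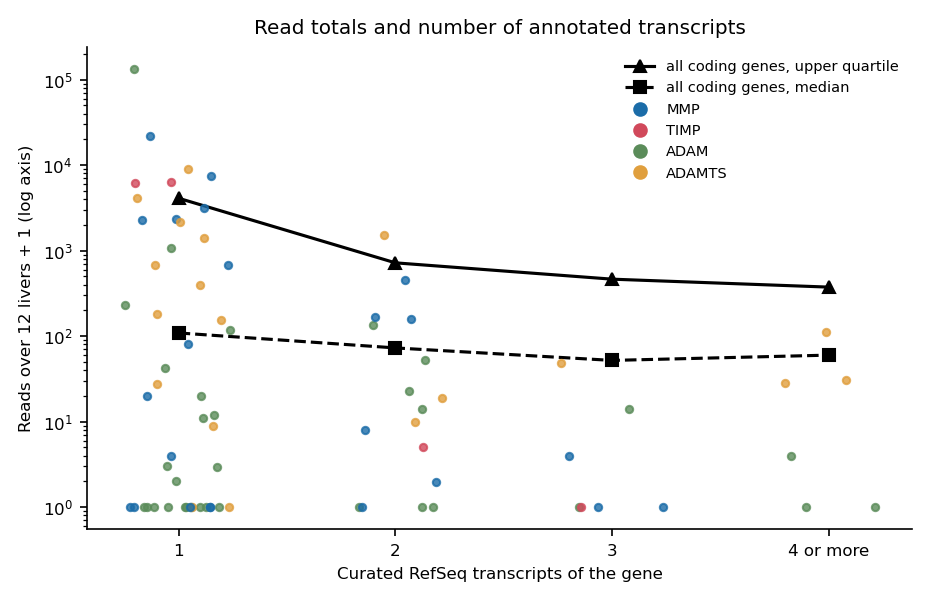
Read totals over 12 livers plus 1 (log axis) against the number of curated RefSeq transcripts of a gene, with a point for each member coloured by family and lines for the median and upper quartile of all coding genes. The upper quartile falls from 4095 reads with 1 transcript to 373 with 4 or more, and the highest members have 1.

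Marker genes of several cell types of the fetal liver had reads, at uneven levels within each list. Above 1 CPM lay 5 of 6 hepatocyte markers, 4 of 5 erythroid markers found in the table, 6 of 7 mesenchymal, 4 of 6 endothelial and 2 of 5 macrophage markers. Of the rows matched to a protein-coding gene, 43.7% lay above this limit. The hepatocyte genes Alb and Afp stood at 63314 and 54525 CPM, the erythroid gene Klf1 at 692 CPM, and the mesenchymal Col1a1 at 468 CPM. In the same lists Dlk1 stood at 1.32 CPM, Alas2 at 0.552 CPM and the macrophage gene Csf1r at 0.532 CPM, and Pdgfrb and the endothelial genes Pecam1 and Tek were listed at 0. All 9 markers of the neutrophil lineage had reads and 8 of them lay above 1 CPM, among them Mpo at 758 CPM and S100a8 at 478 CPM, while S100a9 had 2 reads. The 5 markers of pancreas acinar cells also had reads, and 3 of them lay above 1 CPM. Ctrb1 stood at 12.4 CPM and Cpa1 at 7.89 CPM, while Pnlip had 2 reads. In whole livers, fewer cells of a type and less RNA per cell cannot be told apart.

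Of the 79 members, 52 (65.8%) had reads, beside 63.9% of all rows and 77.6% of the rows matched to a protein-coding gene. Above 1 CPM lay 21 members (26.6%), beside 31.9% of all rows and 43.7% of protein-coding rows. Just inside this limit were Adam1a at 1.48, Adamts4 at 1.14 and Mmp25 at 1.05 CPM, and just outside it Mmp11 at 0.999, Adamts19 at 0.983 and Adam32 at 0.844 CPM. The families differed in how their reads were spread. Reads were found for 15 of 23 MMPs, 3 of 4 TIMPs, 17 of 33 ADAMs and 17 of 19 ADAMTSs, and 8, 2, 3 and 8 of these lay above 1 CPM. In each protease family a single gene held most of the summed level per kb, namely Mmp14 with 57.1% of the MMPs, Adamts1 with 56.4% of the ADAMTSs and Adam10 with 98.8% of the ADAMs.

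**Figure D2:**
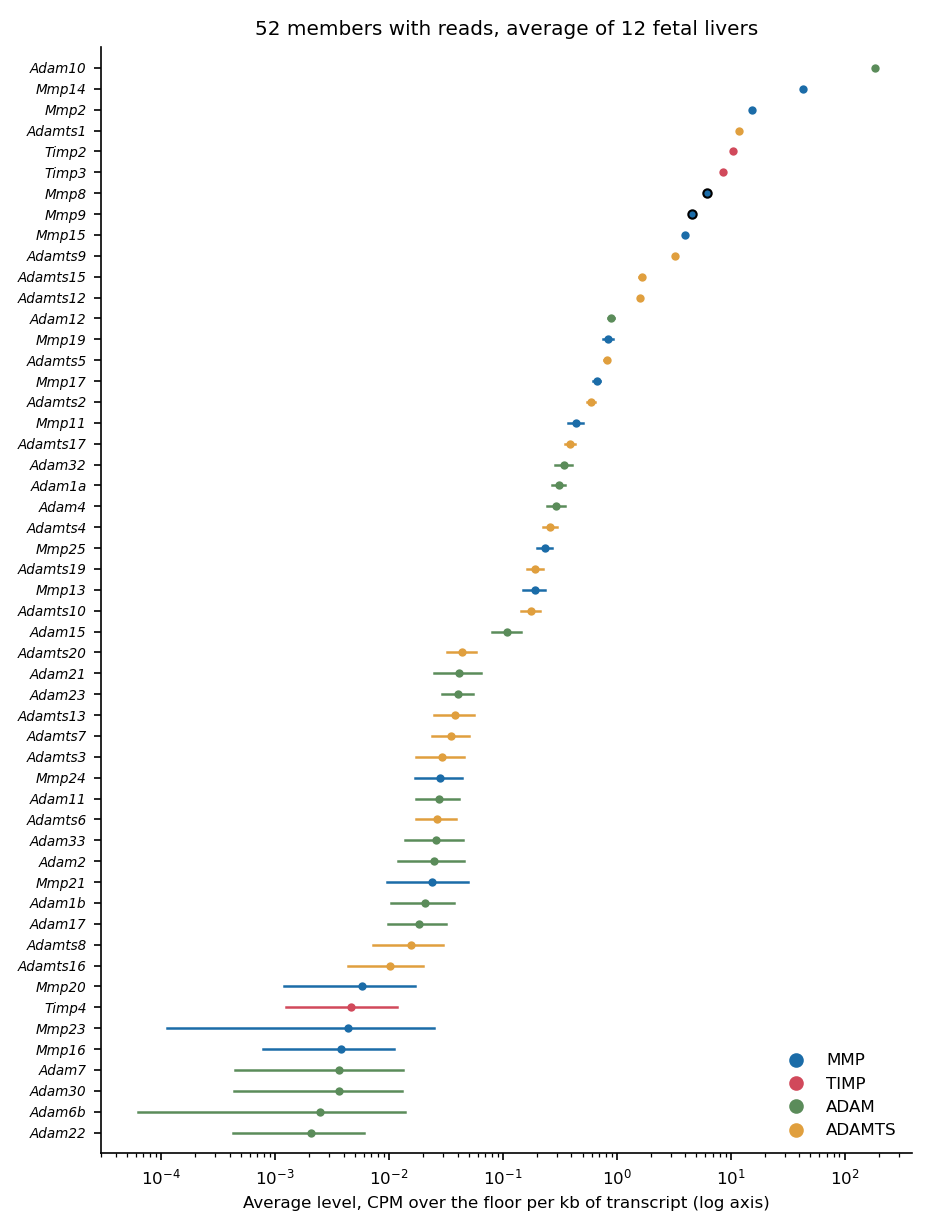
Average level of the 52 members with reads, in CPM over the floor per kb of transcript (log axis), coloured by family, with bars for the 95% counting interval and black rings around Mmp8 and Mmp9. Adam10 stands highest at 184 CPM per kb, and Mmp8 and Mmp9 follow Timp3 at 6.21 and 4.55 CPM per kb.

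Among the MMPs, the order per kb was Mmp14, Mmp2, Mmp8, Mmp9, Mmp15 and Mmp19. Mmp14 encodes a membrane-bound collagenase that also activates proMMP2, and its level was 43.0 CPM per kb (42.4 to 43.6) from 21941 reads. Mmp2, the gelatinase of mesenchymal cells, stood at 15.2 CPM per kb (14.9 to 15.6) from 7390 reads. These MMPs were thus the only ones above Mmp8 and Mmp9.

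Mmp8, the neutrophil collagenase, had 2373 reads over the 12 livers, or 15.1 CPM (14.5 to 15.7). Per kb it stood at 6.21 CPM (5.96 to 6.46), rank 3 of the 23 MMPs. Mmp9, the second gelatinase, had nearly as many reads, 2274, or 14.4 CPM (13.8 to 15.0), and its longer transcript placed it at rank 4 with 4.55 CPM per kb (4.36 to 4.73). The undivided levels of Mmp8 and Mmp9 had overlapping counting intervals, and their levels per kb did not, at a ratio of 1.37. Together they made up 14.3% of the summed MMP level per kb, and each has 1 curated RefSeq transcript.

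Mmp14 and Mmp2 stood several times above Mmp8 and Mmp9, and Mmp15 came next beneath them. Mmp14 was 6.93 times as high per kb as Mmp8 and 9.46 times as high as Mmp9, and Mmp2 was 2.45 times as high as Mmp8 and 3.35 times as high as Mmp9. Mmp15, a second membrane-type MMP, stood at 3.94 CPM per kb (3.80 to 4.08), 0.634 of the Mmp8 level and 0.866 of the Mmp9 level, with 3186 reads. Divided by coding length in place of transcript length, Mmp15 at 10.3 CPM per kb passed Mmp9 at 6.59 and stayed below Mmp8 at 10.8, so the order of Mmp9 and Mmp15 rests on the length that is used. With no division by length, Mmp15 lay above both.

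The other MMPs with reads were low. Mmp19 had 450 reads and 0.839 CPM per kb, and 25.4% of the 50-base stretches of its transcript are shared with transcripts of other genes, mainly Tmem198b, so its total is uncertain. The membrane-type Mmp17 had 672 reads and 0.664 CPM per kb, and Mmp11, a stromelysin-like MMP that is activated inside the cell, had 157 reads. Mmp13, the main collagenase of bone, had 80 reads and 0.191 CPM per kb (0.151 to 0.236). Mmp25, another MMP known from neutrophils, had 166 reads and 0.233 CPM per kb, under the intervals of Mmp8 and Mmp9. Mmp24 had 19 reads, Mmp16, Mmp20, Mmp21 and Mmp23 had 1 to 7 reads each, and 8 MMPs were listed at 0, of which only Mmp28 lies outside the gene cluster described below.

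By role, the 6 membrane-type MMPs all had reads and summed to 47.9 CPM per kb, of which 89.8% was Mmp14. The 2 gelatinases summed to 19.8 CPM per kb, of which 77.0% was Mmp2. Of the 4 collagenases Mmp1a, Mmp1b, Mmp8 and Mmp13, Mmp8 held 97.0% of a sum of 6.40 CPM per kb. The membrane-bound collagenase Mmp14 was counted under the membrane type and is not in this sum. The 3 stromelysins summed to 0.437 CPM per kb, all from Mmp11, and Mmp3 and Mmp10 were listed at 0.

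**Figure D3:**
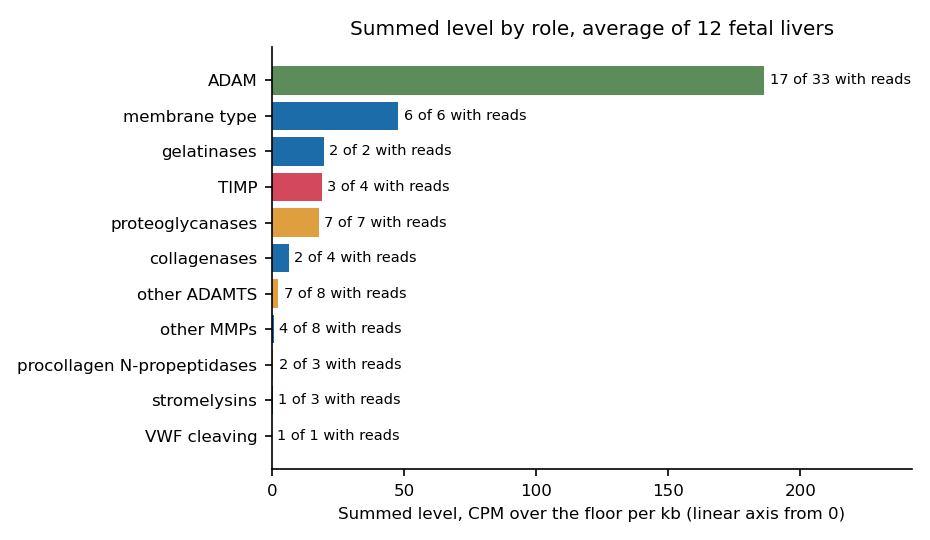
Summed level by role (CPM over the floor per kb, linear axis from 0), with the number of genes with reads beside each bar and colours for MMPs (blue), TIMPs (red), ADAMs (green) and ADAMTSs (orange). The ADAM bar of 186 is nearly all Adam10, and the membrane-type MMPs at 47.9 and the gelatinases at 19.8 stand above the collagenases at 6.40. Mmp14 is counted under the membrane type.

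Mmp8 lies in a cluster of 10 MMP genes that spans 427 kb at chr9:7272514-7699585 (GRCm38), with no other protein-coding gene between its ends. In order along the chromosome these are Mmp13, Mmp12, Mmp1b, Mmp3, Mmp1a, Mmp10, Mmp8, Mmp27, Mmp20 and Mmp7. The cluster had 2456 reads, of which 2373 were from Mmp8. Per kb, Mmp8 was 32.5 times as high as Mmp13. Mmp13, at one end of the cluster, had 80 reads and Mmp20, an enamel protease, had 3, while the other 7 genes were listed at 0. Mmp27, whose start is 12.9 kb from that of Mmp8, was among these.

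**Figure D4:**
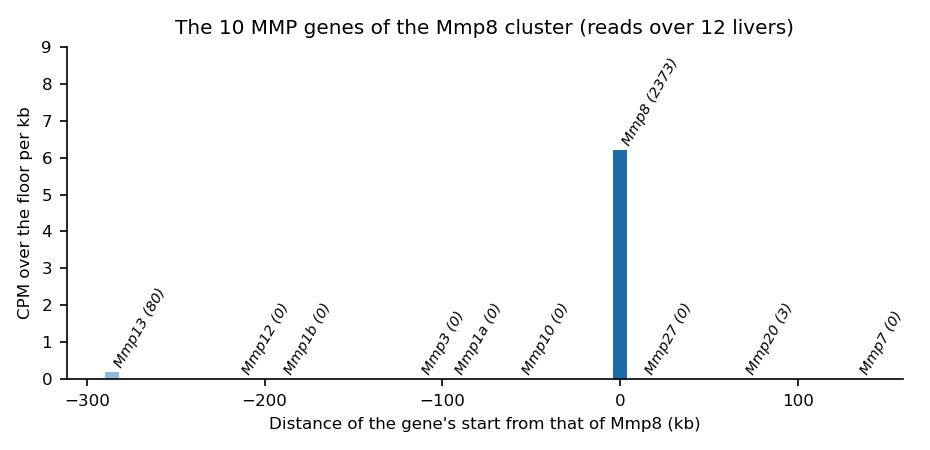
Level of the 10 MMP genes of the Mmp8 cluster (CPM over the floor per kb, linear axis from 0) against the distance of each gene's start from that of Mmp8 in kb, with read totals over 12 livers in brackets. Mmp8 stands at 6.21 CPM per kb, Mmp13 at 0.191, and the rest are at or next to 0.

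Mmp9 lies on another chromosome, at chr2:164940780-164955850. When the coding sequence of Mmp8 (1395 bases) was aligned with that of Mmp9 (2190 bases), 64.7% of the aligned bases were identical. Over the other MMPs this share ran from 58.9% with Mmp23 to 65.3% with Mmp7, and Mmp14 had 65.2%, so it did not set the cluster genes apart as the most like Mmp8. Relative to the longer sequence, which lowers the value where lengths differ, the 7 highest were cluster genes, from Mmp1a with 61.9% to Mmp20 with 57.6%, and Mmp9 had 40.1%. Mmp9 and Mmp2 shared 64.0% of aligned bases and 56.3% relative to the longer sequence. By the second measure this was the highest of the 22 MMPs with Mmp9, and by the first it was not. The first measure leaves gaps out. With Mmp9 it was highest for the shortest coding sequences, Mmp7 (801 bases, 75.1%) and Mmp23 (1173 bases, 71.0%). Unrelated sequences were not aligned, so neither measure has a background value here. In the 33 bases of the zinc site shown above, 20 positions were identical between Mmp8 and Mmp9. No MMP shared fewer with Mmp8. Mmp9 shared 25 with Mmp2, and also 25 each with Mmp14, Mmp15 and Mmp20 and 26 with Mmp24. The site is in exon 5 in 18 of the 23 MMPs, and in exon 8 only in Mmp2 and Mmp9, whose catalytic domains are known to carry inserted fibronectin repeats.

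Among the inhibitors, Timp2 and Timp3 carried nearly all reads. Timp2, a broad MMP inhibitor that also takes part in proMMP2 activation with MMP14, had 6131 reads and 10.5 CPM per kb (10.2 to 10.8). Timp3, which binds to the matrix, had 6316 reads and 8.49 CPM per kb (8.28 to 8.70). The order of these genes turned when the coding length was used, with Timp2 at 59.0 and Timp3 at 63.3 CPM per kb. Timp3 lies within Syn3, and 36.3% of its 50-base stretches also occur in transcripts of other genes, so part of its reads could have been assigned elsewhere. Timp4 had 4 reads. Timp1, an inhibitor that is also known to act on erythroid precursors, was listed at 0.

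The MMPs summed to 75.4 CPM per kb and the TIMPs to 19.0, a ratio of 3.97. This ratio is set by few genes and by the length in use. It was 1.70 without Mmp14, 8.87 without Timp2, and 1.12 when levels were divided by coding length, because the TIMP coding sequences are short beside their transcripts. Mmp14 alone was 4.10 times as high per kb as Timp2, and Mmp2 was 1.45 times as high.

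Adam10, the protease that sheds Notch receptors and many other membrane proteins, was the highest of all members. It had 133309 reads, or 846 CPM, and 184 CPM per kb, 4.28 times the level of Mmp14 and 206 times that of the next ADAM. It held 61.1% of the summed level per kb of all 79 genes. Adam17, which sheds tumour necrosis factor and ligands of the epidermal growth factor receptor, had 13 reads over the 12 livers. Adam10 has 1 curated transcript and Adam17 has 3, and the part of this in their levels was not tested.

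Below Adam10 the order per kb was Adam12, Adam32, Adam1a, Adam4, Adam15, Adam21 and Adam23. Adam12, a mesenchymal ADAM, had 1080 reads and 0.893 CPM per kb (0.840 to 0.948). Adam32, Adam1a and Adam4, better known from the testis, had 133, 233 and 116 reads, and their intervals per kb overlapped. The total of Adam1a is uncertain, since all of its 50-base stretches are shared with other annotated transcripts, mainly those of Gm42878. Adam15 had 51 reads, Adam23 41 and Adam21 19, and the 8 other ADAMs with reads besides Adam17 had 1 to 22. Of the 16 ADAMs listed at 0, 12 lie on chromosome 8, where 13 ADAM genes are found and only Adam32 had reads. Adam20, Adam25, Adam26a, Adam26b and Adam39 of that chromosome share 34.2% to 36.7% of their stretches with other genes, and Adam5, Adam9, Adam18, Adam24 and Adam29, which are also at 0, share none. Adam8, Adam9, Adam19 and Adam28, which act outside the testis, were listed at 0 as well. Of the sperm markers Prm1, Prm2, Tnp1 and Tnp2, 1 had reads, at 0.0189 CPM.

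Among the ADAMTSs, the proteoglycan-cutting enzymes stood highest. Adamts1 had 9048 reads and 11.8 CPM per kb (11.5 to 12.0), Adamts9 4071 reads and 3.22 CPM per kb (3.12 to 3.32), and Adamts15 1539 reads and 1.65 CPM per kb (1.57 to 1.73). Adamts1 was 3.65 times as high per kb as Adamts9. All 7 proteoglycanases had reads and 5 lay above 1 CPM, with a sum of 17.8 of the 20.8 CPM per kb of the family. Adamts5, the best-studied aggrecanase of cartilage, had 1385 reads and 0.815 CPM per kb, and Adamts4, its partner in cartilage, 180 reads and 0.260 CPM per kb.

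Adamts12 followed Adamts15 at 1.59 CPM per kb (1.52 to 1.66) from 2152 reads, within counting error of it. Adamts2, which removes the N-propeptide of procollagens, had 681 reads and 0.595 CPM per kb (0.551 to 0.641), and of the other enzymes with this role Adamts3 had 18 reads and Adamts14 was listed at 0. Adamts17 had 396 reads and 0.392 CPM per kb. Adamts13, the protease of von Willebrand factor that is made by stellate cells of the liver, had 27 reads. The other 7 ADAMTSs with reads had 8 to 155, and Adamts18 was, with Adamts14, listed at 0.

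The zinc site divided the families in ways that the choice of members did not use. It was searched as codons in the reading frame of the coding strand, with histidine codons at the first, the fifth and the eleventh position, a glutamate codon at the second and a glycine codon at the eighth. This metzincin motif was found in 56 of the 75 proteases, beside 68 (0.311%) of 21842 coding genes in all. The 56 include Mmp1a, which is annotated as a polymorphic pseudogene and is not among the 21842 genes. All 23 MMPs, 20 of 33 ADAMs and 13 of 19 ADAMTSs held the motif. The members with it carried 93.7% of the summed level per kb of the proteases, most of which is Adam10, and 82.0% once Adam10 was left out.

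The ADAMTSs without the full motif were Adamts1, Adamts4, Adamts8, Adamts9, Adamts15 and Adamts20, which are 6 of the 7 proteoglycanases. They include the highest 3 ADAMTSs per kb of transcript. The third, Adamts15, was within counting error of Adamts12, which holds the full motif. Adamts12 stood above Adamts15 undivided (13.7 against 9.77 CPM) and below it by coding length (2.85 against 3.43 CPM per kb). The 6 without the full motif carried 16.9 of the 20.8 CPM per kb of the family, and the 13 ADAMTSs with it carried 18.7%. In each of these 6 the histidine and glutamate codons were in place. The eighth codon was AAC, AAT or AGC in place of a glycine codon, as in the Adamts1 stretch shown above. Adamts5, the seventh proteoglycanase, has GGC there. The 13 ADAMs without the motif also lacked its shorter form, made of the first 2 histidines and the glutamate, which occurs in 3.24% of coding genes. Among them are Adam11, Adam22 and Adam23, known as ADAMs without protease activity, and these 13 ADAMs summed to 0.740 CPM per kb. A match of codons describes the sequence and does not show activity.

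The site also differed in its gene structure. It lay within 1 exon in all 23 MMPs and in 19 of the 20 ADAMs that hold it, where Adam10 is the exception. It was split between 2 exons in all 18 ADAMTSs whose exons were looked up. Adamts19 also holds the motif, but its exons were not looked up.

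Genes that act on these proteases were described from lists of related genes. For comparison with the counts of each list, 77.6% of protein-coding rows had reads and 43.7% lay above 1 CPM. Of 11 activators, 9 had reads and 5 lay above 1 CPM. Plasminogen (Plg), a liver product whose active form cleaves several proMMPs, stood at 576 CPM per kb, and hepsin (Hpn) and tissue plasminogen activator (Plat) at 2.81 and 1.25 CPM per kb. Furin, which trims the propeptides of Mmp14, the ADAMs and the ADAMTSs, had 136 reads, and Plau and Klkb1 were listed at 0. The 6 other inhibitors all had reads and 5 lay above 1 CPM. Pzp and A2m, secreted inhibitors that trap proteases of many classes, stood at 426 and 161 CPM per kb, both above every MMP and TIMP. Tfpi2 stood at 26.3 CPM per kb, and Reck, a membrane-anchored MMP inhibitor, had 4 reads. Of 8 partners that carry Adam10 or Adam17 through the cell, 6 had reads and none lay above 1 CPM. The highest were Tspan17 and Tspan14, at 0.383 and 0.382 CPM per kb, beside 184 for Adam10.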

How the data were processed

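PolyA-selected RNA of 12 fetal livers, 6 control and 6 HFD, was sequenced. Per the submitters' processing notes and the methods, reads were trimmed with cutadapt 1.2.1, aligned to mm10 with Subread 1.3.6-p1 and annotated with biomaRt. The authors then ran edgeR. The counting tool, the edgeR version and the normalization are not given in the sources used here. The deposited table holds the authors' average log2 CPM per gene, used here, and their log2 fold changes, p-values, adjusted p-values and signed fold changes, which were not used. The planned edgeR test of the diets needs counts of single livers and was not run.

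Reads were computed as 24 times (the ratio of the linear value to the floor, less 1), where 24 is the prior count over all libraries, assuming that the authors kept edgeR's default prior count of 2 in each of 12 libraries. All 4222 rows with 1 to 10 reads came out within 0.15 of a whole number. Because normalized library sizes enter, totals are approximate. In simulated libraries, totals of genes with over 100 reads were recovered with a median error of 0.371% and a largest error of 1.95%. The simulation used the same prior count, so it does not test that assumption. Lengths, positions and coding sequences came from GENCODE M21 (GRCm38). Transcript numbers came from RefSeq or, where named as basic, from GENCODE M21. Coding sequences were aligned end to end (match 2, mismatch -1, gap opening -5, gap extension -0.5). Genes named were Mmp8, Mmp9, all TIMPs, the Mmp8 cluster, the 6 MMPs, 8 ADAMs and 8 ADAMTSs highest per kb, those next to 1 CPM and the highest of each related list. Others, such as Adam17, members named by role or by a count, and the genes used to check the table, were named after their values were seen. Members and lists were chosen with earlier results of these data known. Python 3.11.15, numpy 2.4.6, pandas 2.3.3, scipy 1.17.1, matplotlib 3.10.9 and Biopython 1.88 were used.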

Additional observations from a re-analysis of the deposited data

How the results depend on the processing

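The count of members with reads (52) was 41 at a minimum of 10 reads, and that above 1 CPM (21) was 27 at 0.5 CPM, 18 at 2 CPM and 23 for the values as deposited with the prior count. Of the 20 highest members per kb, 19 remained with coding length and 19 with the union of exons. Without division by length, Mmp8 ranked 4 and Mmp9 ranked 5 among the MMPs, their share of the MMP sum was 12.0%, and the MMP sum was 3.11 times the TIMP sum. With coding length, Mmp9 ranked 5, the share was 12.7% and the ratio 1.12. With the union of exons the share was 19.2%. The ratio was 8.87 without Timp2, and 1.70 without Mmp14, an alternative chosen after seeing the data. The level share of members with the zinc motif (93.7%) was 99.7% with the shorter motif and, chosen after seeing the data, 82.0% without Adam10. Counted as genes, 71.4% of the proteases with reads held it. Restricting to genes with 1 RefSeq transcript, also chosen afterwards, gave a share of 14.6% and a ratio of 3.89. The ranks of Mmp8 and Mmp9 stayed at 3 and 4. This restriction could not change them, since Mmp14 and Mmp2, the MMPs above, also have 1 such transcript.

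No paired analysis was possible because the values used are 1 average over all livers, and leaving out a replicate was not possible for the same reason. The edgeR test of the diets was not run. Depth allows an upper limit of 0.0234 CPM for a gene at 0, which covers counting error only and does not hold where reads were lost in counting.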

Other observations

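The 7 ADAMTS-like genes, which resemble the ADAMTSs but have no protease domain, all had reads, and 2 lay above 1 CPM. Of protein-coding rows, 77.6% had reads and 43.7% lay above 1 CPM. Per kb, Adamtsl2, which is tied to microfibrils and growth factor binding, stood at 0.396 CPM and Thsd4 at 0.241 CPM, beside 11.8 for Adamts1. Adamtsl4 had 2 reads.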
